A study of Mus musculus with 2 samples.

Results

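The genes described here encode the enzymes that make and break down heme, and 8 of the 9 genes that were looked for were found by symbol among the 8551 genes listed for normal and diabetic mouse liver. Of these, 6 act in synthesis (Alad, Uros, Urod, Cpox, Ppox and Fech) and 2 in breakdown (Hmox1 and Blvrb). Alas1, which encodes the first enzyme of hepatic heme synthesis, had no row under that symbol or its Entrez identifier and was not analysed here. Whole liver RNA came from male wild type mice on a C57BL/6 background and from male db/db mice, labelled as type 2 diabetic, on the same background. The db/db genotype leaves mice without a functional leptin receptor, and obesity and diabetes follow. All mice were 9 weeks old, were fed chow, and were killed about 3 h into the light cycle. Each group is 1 tag library. The study's methods describe several mice per group from 2 suppliers, without saying which supplier gave which group or whether RNA was pooled, so no difference below has a replicate check.

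Heme is an iron-containing ring that is built in the mitochondrion and the cytosol by a chain of enzymes, starting from glycine and succinyl-CoA. Outside the bone marrow the liver is its main producer, where most of it goes into cytochrome P450 enzymes. Heme oxygenase opens the ring to biliverdin, iron and carbon monoxide, and biliverdin reductases turn biliverdin into bilirubin.

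The libraries hold digital gene expression tags, short reads that start at a cut of the enzyme DpnII (GATC), ideally at the last such site of a transcript. To show where each gene could be read, the 20 bases that start at the last GATC were taken from GENCODE M21 transcripts (GRCm38) that match RefSeq. The tag length is a choice made here, and the tags that the authors counted were not analysed. In each tag the DpnII site is in capitals.
Alad: GATCttgaccaagctccctg
Uros: GATCccctcgaactagagtt
Urod: GATCcacctacctgcctctc
Cpox: GATCataattagctaacatt
Ppox: GATCacccagctgcccagaa
Hmox1: GATCagcactagctcatccc
Blvrb: GATCttcggtgccaccggca

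In none of the 8 genes, Fech included, did another gene of that annotation hold the tag of 20 bases, on either strand, so at this length no paralog in the annotation shares them. The tag lies in the 3′ untranslated region of Alad (chr4:62509211-62509230, minus strand), Uros (chr7:133686607-133686626, minus strand), Urod (chr4:116989993-116990012, minus strand) and Cpox (chr16:58679666-58679685, plus strand). It lies in a coding exon of Ppox (chr1:171280191-171280210, minus strand), Hmox1 (chr8:75099923-75099942, plus strand) and Blvrb (chr7:27448138-27448157, plus strand). The last site of Ppox is 1228 bases from the end of a transcript of 1821 bases, and that of Cpox is 717 bases from the end of its transcript. The Hmox1 transcript has only 1 DpnII site, 663 bases from its end. In Blvrb the last site is 864 bases from the end of a transcript of 1028 bases, and 1 of 2 transcripts holds it. Uros transcripts end in 2 different tags, of which the one printed is in 2 of 3 transcripts. Since the number and place of sites differ between genes, levels are compared between libraries and not between genes.

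Values are in TPM, which here are tags of a gene per 1000000 clean tags of its library. They increase in steps of 1 read, from which 10278531 and 13508232 clean tags were computed for the normal and the diabetic library. Leaving out values at the placeholder for 0, 8513 of 8513 normal and 8536 of 8537 diabetic values lay within 0.15 of a whole read. The 8 genes had 37 to 1365 reads in a library. Folds divide the diabetic by the normal value, and their 95% exact intervals cover counting error only, not the spread between mice. A gene was called higher or lower at 1.5-fold. Of all listed genes, 34.4% were at least 1.5-fold higher and 15.3% at least 1.5-fold lower in the diabetic library. With an FDR under 0.001 required as well, from an exact binomial test that compares the libraries and not the conditions, 22.9% were higher and 8.19% lower. The median log2 ratio of all listed genes was 0.25, and 4 other scalings between the libraries lowered each log2 ratio by 0.25 to 0.31. As a check of the tissue, 5 of 7 hepatocyte markers were listed, and they did not differ alike. Alb (6801 TPM in normal and 6912 TPM in diabetic liver), Ahsg (3895 and 3930 TPM) and Ttr (257 and 239 TPM) were within 1.5-fold. Cps1, at 130 and 317 TPM, had a log2 ratio of 1.28 and Hnf4a, at 96.8 and 46.2 TPM, one of -1.07.

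The heme enzyme genes did not differ together. At least 1.5-fold higher in the diabetic library were 4 of the 8 (Cpox, Ppox, Hmox1 and Blvrb), and 0 were at least 1.5-fold lower. With the FDR required, 2 of 8 (Cpox and Hmox1) were higher. These counts stand beside shares of 34.4% and 22.9% among all listed genes, and nothing particular to the 8 genes is read from them. The median log2 ratio of the 8 genes was 0.46 against 0.25 over all listed genes, and it was 0.08 over the 6 synthesis genes. Under scaling by trimmed mean of M values (TMM) the medians were 0.20 for the 8 genes and -0.17 for the synthesis genes, so the synthesis median changed its sign. In bulk liver, fewer cells of a type and less RNA per cell cannot be told apart.

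**Figure D1:**
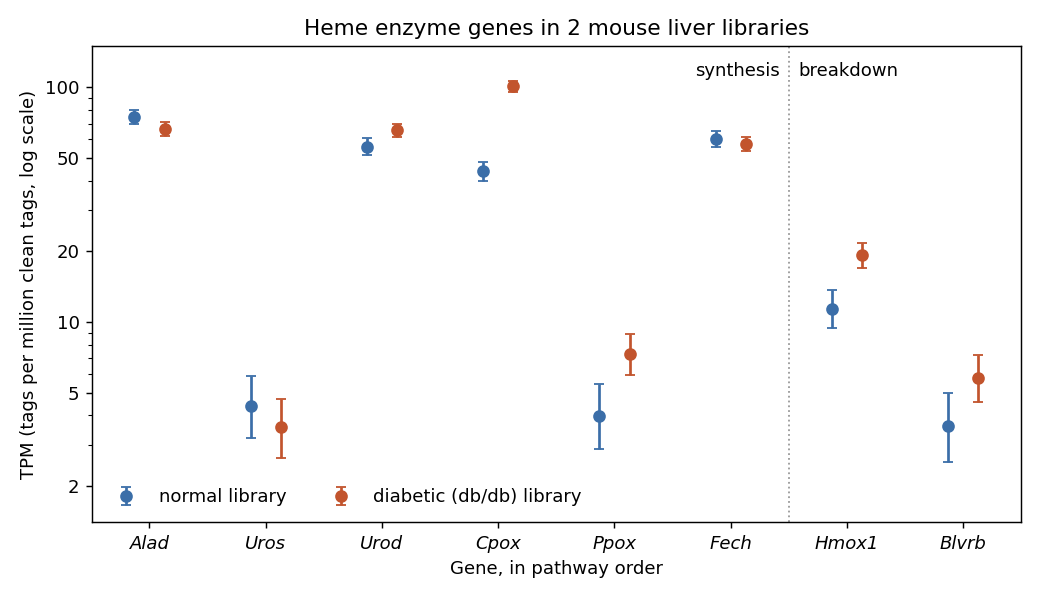
TPM (log axis) of each heme enzyme gene in the normal (blue) and diabetic (orange) library, 1 library per group, with 95% exact Poisson intervals of the reads. The intervals of the libraries are apart for Urod, Cpox, Ppox and Hmox1, and they overlap for Alad, Uros, Fech and Blvrb.

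Cpox, coproporphyrinogen oxidase, which works between the membranes of the mitochondrion, differed most of the 8 genes. Cpox (Entrez 12892) measured 43.8 TPM in normal liver and 101 TPM in diabetic liver, from 450 and 1365 reads. This is 2.31-fold higher (95% interval, 2.07 to 2.57), with an exact test FDR of 1.5e-58. Its log2 ratio of 1.21 lay above that of 86.7% of the listed genes. Cpox also stayed at least 1.5-fold higher under all 4 scalings, with a log2 ratio between 0.90 and 0.95.

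Ppox, protoporphyrinogen oxidase, takes the product of Cpox and forms protoporphyrin. Ppox (Entrez 19044) measured 3.99 TPM (41 reads) in normal liver and 7.33 TPM (99 reads) in diabetic liver, 1.84-fold higher (95% interval, 1.26 to 2.71). Its exact test FDR of 0.0021 did not pass 0.001. Under the 4 scalings the log2 ratio of 0.88 became 0.57 to 0.62, which is under 1.5-fold with median-ratio scaling alone.

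The other synthesis genes were within 1.5-fold. Alad, whose enzyme joins 2 molecules of aminolevulinic acid into porphobilinogen, measured 74.8 TPM in normal and 66.3 TPM in diabetic liver (769 and 896 reads). The log2 ratio of Alad was -0.17 (95% interval, -0.31 to -0.03), and its exact test FDR was 0.029. Under the 4 scalings it was -0.48 to -0.43, outside that interval but still within 1.5-fold. Uros, which closes the ring to uroporphyrinogen III, was at 4.38 and 3.55 TPM. With only 45 and 48 reads, the log2 ratio of Uros, -0.30, had a 95% interval from -0.92 to 0.32, an interval that includes both equal levels and 1.5-fold lower, so that the depth cannot tell these apart. Median-ratio scaling placed Uros at -0.61, just past 1.5-fold lower.

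Urod, uroporphyrinogen decarboxylase, which makes the substrate of Cpox, measured 55.8 TPM in normal liver and 65.6 TPM in diabetic liver (573 and 886 reads). Its log2 ratio was 0.23 (95% interval, 0.08 to 0.39) as deposited, near the median of all genes, and between -0.07 and -0.02 under the 4 scalings. Fech, ferrochelatase, which inserts iron into the product of Ppox, was at 60.0 and 57.3 TPM (617 and 774 reads). The log2 ratio of Fech was -0.07 (95% interval, -0.22 to 0.09), so that a difference of 1.5-fold in either direction lies outside its counting interval as deposited. Under the 4 scalings it was -0.37 to -0.32.

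**Figure D2:**
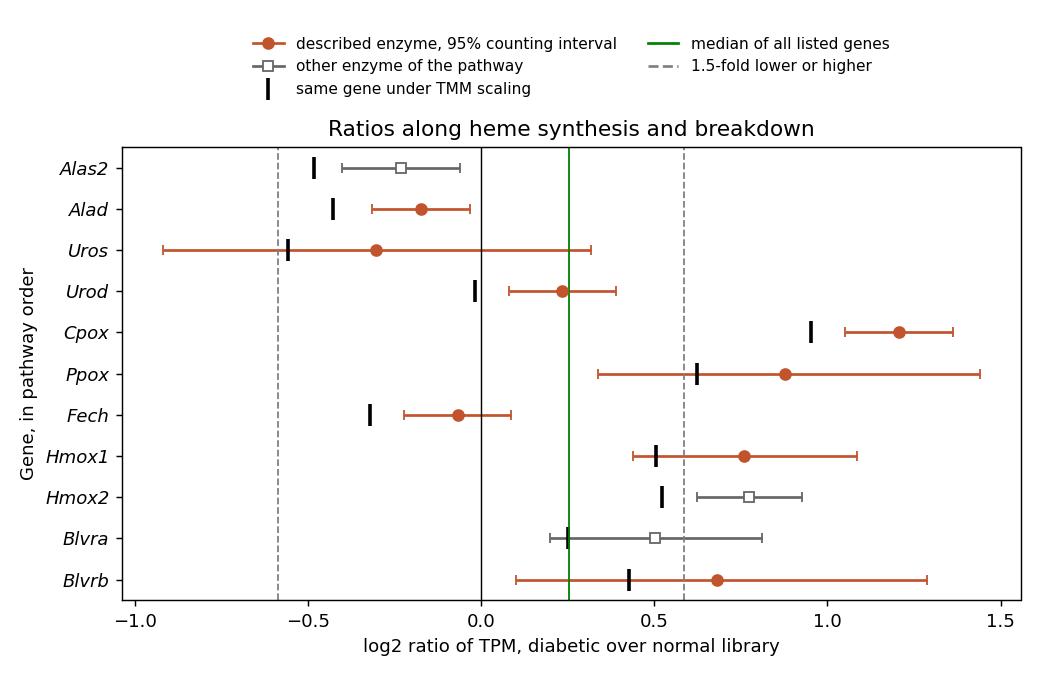
log2 ratio of TPM, diabetic over normal library, in pathway order, for the 8 described genes (filled circles) and 3 other enzymes of the pathway (open squares), with 95% exact counting intervals. Black ticks give the ratio under TMM scaling, dashed lines 1.5-fold and the green line the median of all listed genes (0.25). Cpox lies farthest to the right at 1.21, while Urod before it and Fech after Ppox lie at 0.23 and -0.07.

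How one gene differed relative to another does not depend on the scaling, since any scaling moves both folds alike. For each of the 28 pairs of the 8 genes, the fold of one was therefore divided by the fold of the other, with an exact conditional interval from the reads. In 18 pairs the 95% interval excluded 1, and in 9 pairs it did so after adjustment over the 28 pairs. Among the 15 pairs of synthesis genes these numbers were 10 and 7. The same share over pairs of all listed genes was not computed, so nothing particular to the heme enzyme genes is read from these counts. The fold of Cpox was 1.96 times that of Urod, the step before it (95% interval, 1.68 to 2.28). It was 2.42 times that of Fech (2.07 to 2.82) and 2.60 times that of Alad (2.25 to 3.01). The fold of Ppox was 1.92 times that of Fech, the step after it (1.30 to 2.89), and these 4 pairs passed the adjustment.

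Cpox and Ppox were not told apart from each other, with a ratio of their folds of 1.26 (95% interval, 0.84 to 1.86). The ratio of Ppox to Urod, 1.56 (1.06 to 2.34), did not pass the adjustment over pairs, which widened its interval to 0.85 to 2.98. Of the genes within 1.5-fold, Urod exceeded Alad by 1.33 times (1.15 to 1.53), which passed it. The low reads of Uros left its ratios wide, and against Uros only Cpox passed, at 2.84 times (1.82 to 4.43). These ratios show unequal differences between the libraries, and do not show which gene stayed equal.

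**Figure D3:**
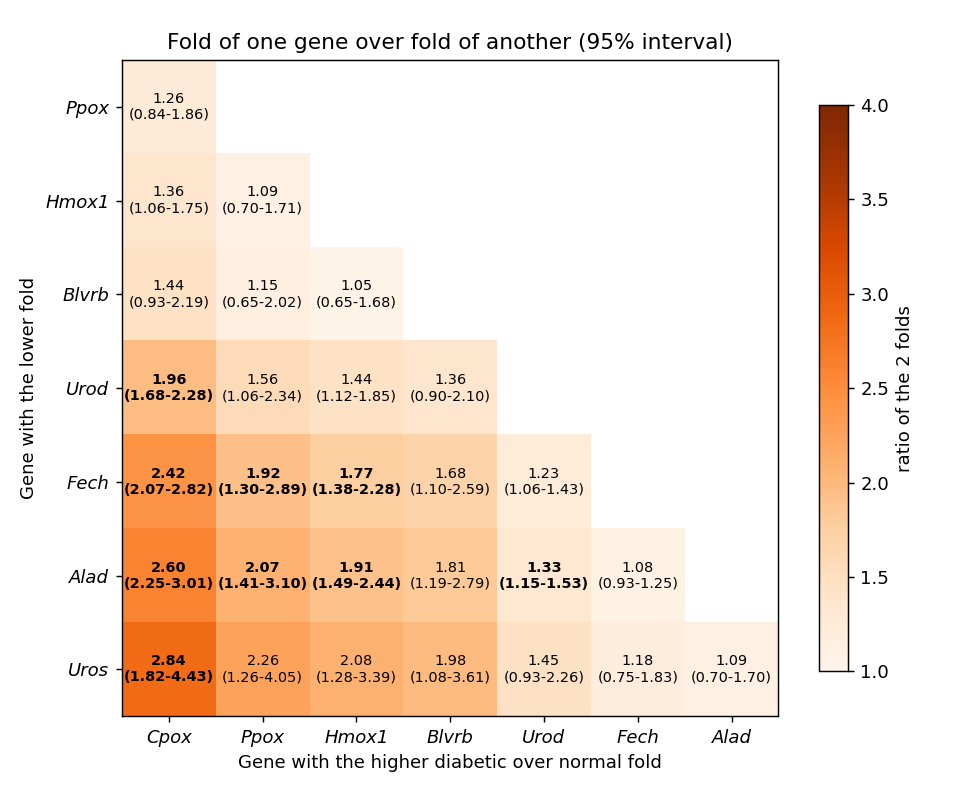
Fold (diabetic over normal) of the gene on the horizontal axis divided by the fold of the gene on the vertical axis, for 28 pairs, with 95% exact conditional intervals in brackets; bold values have an interval above 1 after adjustment over the pairs. The column of Cpox holds the highest values against the 4 genes within 1.5-fold, from 1.96 to 2.84.

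In breakdown, Hmox1 encodes the inducible heme oxygenase, and it was higher in the diabetic library. Hmox1 (Entrez 15368) measured 11.4 TPM (117 reads) in normal liver and 19.3 TPM (260 reads) in diabetic liver, 1.69-fold higher (95% interval, 1.35 to 2.12). Its exact test FDR was 5.6e-06. Under all 4 scalings Hmox1 was above equal but under 1.5-fold, with a log2 ratio of 0.45 to 0.51 in place of 0.76.

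Blvrb encodes biliverdin reductase B, a flavin reductase known mainly for fetal biliverdin. Blvrb (Entrez 233016) measured 3.60 TPM in normal and 5.77 TPM in diabetic liver, from 37 and 78 reads. Its fold of 1.60 had a wide 95% interval of 1.07 to 2.44, and the exact test FDR of 0.035 did not pass 0.001. The scalings gave a log2 ratio of 0.37 to 0.43 in place of 0.68, under 1.5-fold. The folds of Hmox1 and Blvrb were not told apart (Hmox1 over Blvrb, 1.05, interval 0.65 to 1.68).

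Kupffer cells, the macrophages of the liver, also express Hmox1 when they take up red cells. Of 12 macrophage markers 9 were listed, 1 was at least 1.5-fold higher (C1qb) and 5 were lower (C1qa, C1qc, Csf1r, Emr1 and Fcna), all 6 with an exact test FDR under 0.001. Of all listed genes, 22.9% were higher and 8.19% lower by the same call. The median log2 ratio of the 9 markers was -0.66, and -0.92 under TMM scaling, where C1qb was under 1.5-fold. Cd5l (64.7 TPM in normal and 62.9 TPM in diabetic liver) and Cd68 (3.99 and 3.41 TPM) were within 1.5-fold, with log2 ratios of -0.04 and -0.23. Summed over the list, normal liver had 378 TPM and diabetic liver 226 TPM. C1qa alone held 176 and 50.7 TPM of these sums, so they mostly follow 1 gene. The Kupffer cell lectin Clec4f had 15 reads in each library, no listed marker was at 0, and Vsig4, Marco and Timd4 were not analysed here. The part of macrophages in the Hmox1 value was not tested.

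Beside the 8 genes, 3 other enzymes of the pathway, Alas2, Hmox2 and Blvra, were described. Of these 3, Hmox2 was at least 1.5-fold higher and 0 were lower, beside 34.4% and 15.3% of all listed genes. Hmox2, the constitutive heme oxygenase, was at 50.1 TPM (515 reads) and 85.7 TPM (1158 reads), a log2 ratio of 0.77 (0.62 to 0.93). The folds of Hmox1 and Hmox2 were not told apart (Hmox2 over Hmox1, 1.01, interval 0.79 to 1.30). Under TMM scaling Hmox2 was at 0.52, under 1.5-fold.

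Blvra, the main adult biliverdin reductase, was at 13.4 and 19.0 TPM (138 and 257 reads), with a log2 ratio of 0.50 (95% interval, 0.20 to 0.81). Blvra and Blvrb were likewise not told apart, the fold of Blvrb being 1.13 times that of Blvra (0.71 to 1.82). Alas2, the erythroid form of the first enzyme, was at 51.9 and 44.2 TPM (533 and 597 reads), a log2 ratio of -0.23 (-0.40 to -0.06). Alas2 is known from red cell precursors. Of 11 erythroid markers, Alas2 and Klf1 were listed, and Klf1 was at 3.50 and 6.37 TPM. The globin genes of that list were not analysed here, and the source of the Alas2 tags was not tested. Ugt1a1, which conjugates bilirubin, was not analysed here.

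To show the sequence beside the values, the 250 bases before the start site were taken from RefSeq (GRCm38.p6) for the higher genes Cpox (chr16:58669958-58670207, plus strand) and Ppox (chr1:171281187-171281436, minus strand), and for Alad (chr4:62520064-62520313, minus strand) and Urod (chr4:116994414-116994663, minus strand), which were within 1.5-fold. Capitals mark matches on either strand to the motifs named after the sequences.
Cpox: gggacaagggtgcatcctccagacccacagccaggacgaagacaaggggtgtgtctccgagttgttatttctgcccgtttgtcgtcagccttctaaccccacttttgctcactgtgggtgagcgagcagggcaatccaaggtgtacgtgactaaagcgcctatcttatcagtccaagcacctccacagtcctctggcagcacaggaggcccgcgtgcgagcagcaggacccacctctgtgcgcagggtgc
Ppox: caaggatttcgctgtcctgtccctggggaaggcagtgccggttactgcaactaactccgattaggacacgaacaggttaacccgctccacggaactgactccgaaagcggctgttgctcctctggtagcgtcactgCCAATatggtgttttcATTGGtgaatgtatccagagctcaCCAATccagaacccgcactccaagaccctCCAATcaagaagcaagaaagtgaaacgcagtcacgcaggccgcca
Alad: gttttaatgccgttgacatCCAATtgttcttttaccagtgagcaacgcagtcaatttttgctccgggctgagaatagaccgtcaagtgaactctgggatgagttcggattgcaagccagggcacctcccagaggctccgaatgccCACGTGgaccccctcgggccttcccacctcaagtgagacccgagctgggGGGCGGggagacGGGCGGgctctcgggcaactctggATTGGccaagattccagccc
Urod: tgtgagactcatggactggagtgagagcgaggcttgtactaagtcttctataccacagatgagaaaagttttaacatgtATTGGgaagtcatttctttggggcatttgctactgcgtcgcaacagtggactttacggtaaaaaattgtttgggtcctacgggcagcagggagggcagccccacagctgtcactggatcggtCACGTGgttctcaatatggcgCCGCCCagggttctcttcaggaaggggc

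The motifs were searched on both strands and were chosen with the values known. They were the GC box GGGCGG (in 32.7% of 32851 promoters of this length), the CCAAT box CCAAT (33.8%), the E-box CACGTG (6.02%), the antioxidant response element TGACNNNGC (10.2%), the GATA element AGATAA (9.99%), the NRF1 core GCATGC (6.70%) and the TATA box TATAAA (12.4%). No marked matches overlap in the sequences printed. Promoters were found for 6 of the 8 genes, and not for Fech and Hmox1. Ppox holds 4 CCAAT boxes, 45 to 114 bases before its start, and Cpox holds none of the 7 motifs in the letters given above. Other spellings of these motifs were not searched, so their absence from Cpox is not shown. Alad, Uros and Blvrb have 2 start sites each in that table, and the Alad sequence printed is that of the first. The E-box was found before the only start of Urod (49 bases), before both starts of Alad (105 and 28 bases) and before 1 of 2 starts of Uros, at the far edge of the window (250 bases). It was not found before the other start of Uros, nor before any start of Cpox, Ppox and Blvrb, and nothing is read from this about the genes' ratios. None of the promoters of the 6 genes held the antioxidant response element, the GATA element, the NRF1 core or the TATA box in these letters. A match is a description of the sequence, and binding was not measured.

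**Figure D4:**
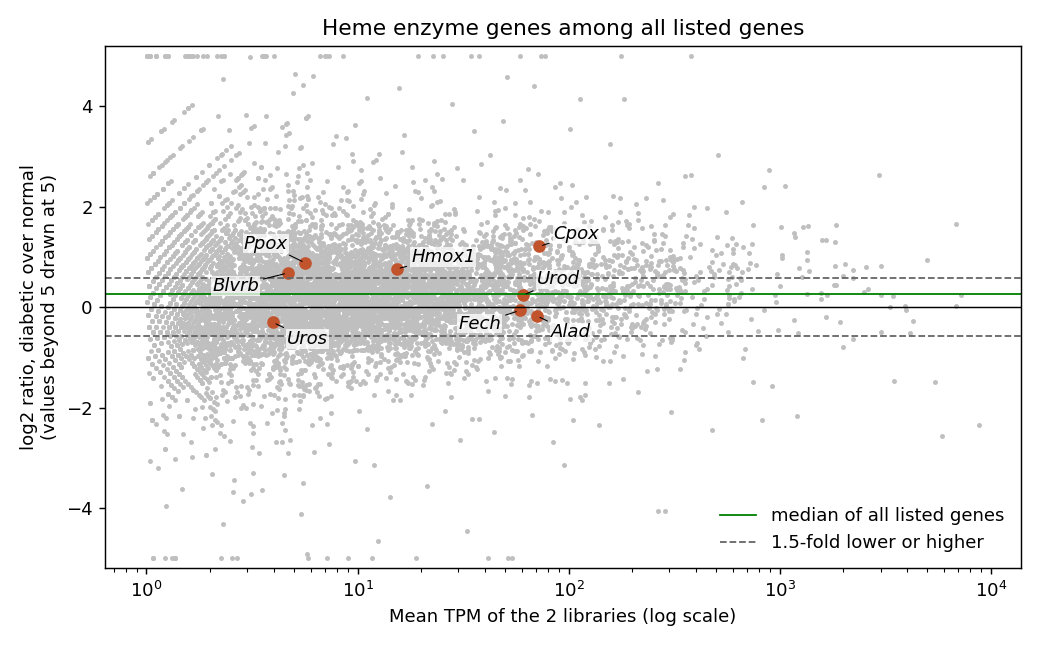
log2 ratio (diabetic over normal) against mean TPM (log axis) for all 8551 listed genes (grey) and the 8 heme enzyme genes (orange, named), with ratios beyond 5 drawn at 5; the green line is the median of all listed genes and dashed lines mark 1.5-fold. All 8 genes lie inside the cloud of listed genes, with Cpox the highest at 1.21 and Uros the lowest at -0.30.

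Counts for each gene list stand beside shares of 34.4% higher and 15.3% lower among all listed genes. With the FDR required as well, those shares were 22.9% and 8.19%. Heme synthesis also needs carriers and substrates. Of 12 such genes 10 were listed, 4 were at least 1.5-fold higher, all with an exact test FDR under 0.001, and 0 were lower, with a median log2 ratio of 0.34. Under TMM scaling 2 were higher, and the median was 0.09. Slc25a39, a mitochondrial carrier needed for heme synthesis, was at 204 TPM (2095 reads) and 490 TPM (6625 reads), a log2 ratio of 1.27 (95% interval, 1.20 to 1.34). Abcb6, a porphyrin transporter, had a log2 ratio of 0.88 (0.60 to 1.17), and Suclg1, a subunit of the succinyl-CoA ligase, one of 0.68 (0.59 to 0.77). Slc25a38, the mitochondrial glycine carrier, was at 10.2 and 15.8 TPM, a log2 ratio of 0.63 (0.28 to 0.98). Nearest to equal was Clpx, which acts on the aminolevulinate synthases, at -0.06 (-0.38 to 0.26).

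Among genes of heme transport and binding, 12 of 13 were listed, 5 were at least 1.5-fold higher and 1 was lower, 4 and 1 of them with an FDR under 0.001 in the exact test. Their median log2 ratio was 0.46, and 0.21 under TMM scaling, where 4 were higher and 3 lower. Pgrmc1 and Pgrmc2, heme-binding membrane proteins of which the first binds ferrochelatase, had log2 ratios of 1.38 (1.33 to 1.44) and 1.46 (1.27 to 1.66). Abcg2, which exports porphyrins, was at 22.6 and 64.7 TPM, a log2 ratio of 1.52 (1.31 to 1.73). Hebp1, a cytosolic heme-binding protein, was at 0.80 (0.67 to 0.93). Cd163, the macrophage receptor for haemoglobin, was at 20.5 TPM and 10.1 TPM, a log2 ratio of -1.03 (-1.35 to -0.71). Nearest to equal was Mfsd7b, the heme exporter also named Flvcr1, with 25 and 28 reads.

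The log2 ratios of the listed proteins that use heme ran from -0.98 to 7.45, those of the 6 synthesis genes from -0.30 to 1.21. The list of heme proteins is longer and was chosen with earlier results of these data known, so nothing is read from its wider range. Of 24 heme proteins 22 were listed, 10 were at least 1.5-fold higher and 2 lower (9 and 2 with an FDR under 0.001 in the exact test), and the median log2 ratio was 0.56. TMM scaling gave 8 higher, 5 lower and a median of 0.31. The highest ratios were those of the cytochromes P450 Cyp2b10 (log2 ratio 7.45, from 4 and 922 reads), Cyp4a14 (5.72), Cyp17a1 (5.44) and Cyp2a5 (3.26). The study already names Cyp2b10, Cyp4a14 and Cyp17a1 among its largest upward fold changes in these libraries. Cyp27a1, a bile acid enzyme, was at 239 and 121 TPM, and Cygb, cytoglobin, at 15.7 and 9.62 TPM, with log2 ratios of -0.98 and -0.70. Catalase (Cat) was nearest to equal, at 23.8 and 23.5 TPM. Of 5 genes for cytochrome assembly and reductases, 2 were higher and 0 lower, with a median of 0.15 that became -0.11 under TMM scaling. These were Por, the electron donor of the P450 enzymes, from 204 and 1675 reads (log2 ratio 2.64, interval 2.43 to 2.86), and Cox15, which makes heme a, at 1.07 (0.78 to 1.35). Cyb5r3, a cytochrome b5 reductase, was nearest to equal at 0.06, or -0.19 under TMM scaling.

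Regulators known to act on the first enzyme or on Hmox1 differed in both directions. Of 23, 18 were listed, 9 were at least 1.5-fold higher and 4 lower (7 and 1 with an FDR under 0.001 in the exact test), with a median log2 ratio of 0.56. Under TMM scaling 7 were higher and 6 lower, and the median was 0.31. Nr1i3, the receptor CAR, which induces P450 genes, was at 32.5 and 176 TPM, a log2 ratio of 2.44 (2.27 to 2.61). Nfe2l2, which encodes the antioxidant factor NRF2, was at 33.4 TPM (343 reads) and 151 TPM (2044 reads), a log2 ratio of 2.18 (2.02 to 2.35). Its Maf partners differed in both directions. Mafg was at 2.00 (1.60 to 2.42), Maff at 1.51 (0.35 to 2.85) and Mafk at -0.78 (-1.36 to -0.20). Maff had only 8 and 30 reads, and the exact test FDR of Maff and Mafk, 0.011 and 0.013, did not pass 0.001. Bach1, at 0.68 (0.15 to 1.24), and Keap1, at -0.60 (-0.96 to -0.24), did not pass it either. Nr1d1, the heme-sensing clock repressor REV-ERBα, was at 13.1 and 38.5 TPM, a log2 ratio of 1.55 (1.28 to 1.84), in livers that were all taken at 1 time of day. Hnf4a, a hepatocyte factor, was at 96.8 and 46.2 TPM, a log2 ratio of -1.07 (-1.21 to -0.92). Ireb2, an iron sensor, was nearest to equal at 0.16 (-0.54 to 0.88), or -0.09 under TMM scaling.

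Hmox1 is a known target of NRF2. Of a short list of 6 other targets of that factor, chosen with earlier results of these data known, 5 were listed. The list does not cover all targets of NRF2. All 5 were past 1.5-fold on the higher side, 4 of them also by the exact test, and the median log2 ratio was 1.29. Among all listed genes, 34.4% were at least 1.5-fold higher, and 22.9% also by the exact test. Under TMM scaling 4 of the 5 targets were past 1.5-fold, and their median was 1.04. Nqo1, a quinone reductase, had 28 and 304 reads and a log2 ratio of 3.05 (2.49 to 3.66). Srxn1, sulfiredoxin, was at 1.67 (1.36 to 1.99), Gclc, which makes a subunit of the enzyme for glutathione synthesis, at 1.29 (1.17 to 1.42) and Txnrd1, thioredoxin reductase, at 0.75 (0.63 to 0.86). The log2 ratio of Hmox1, 0.76, was therefore near the lowest of these values, that of Txnrd1. The part of NRF2 in the Hmox1 value was not tested. Of the genes for bilirubin handling, 5 of 6 were listed, 0 were at least 1.5-fold higher and 1 was lower, the organic anion carrier Slco1a1, with 841 and 21 reads. Alb, albumin, which carries bilirubin in blood, was nearest to equal at 0.02. The median of these 5 genes was also 0.02, and under TMM scaling it was -0.23, with 2 lower.

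**Figure D5:**
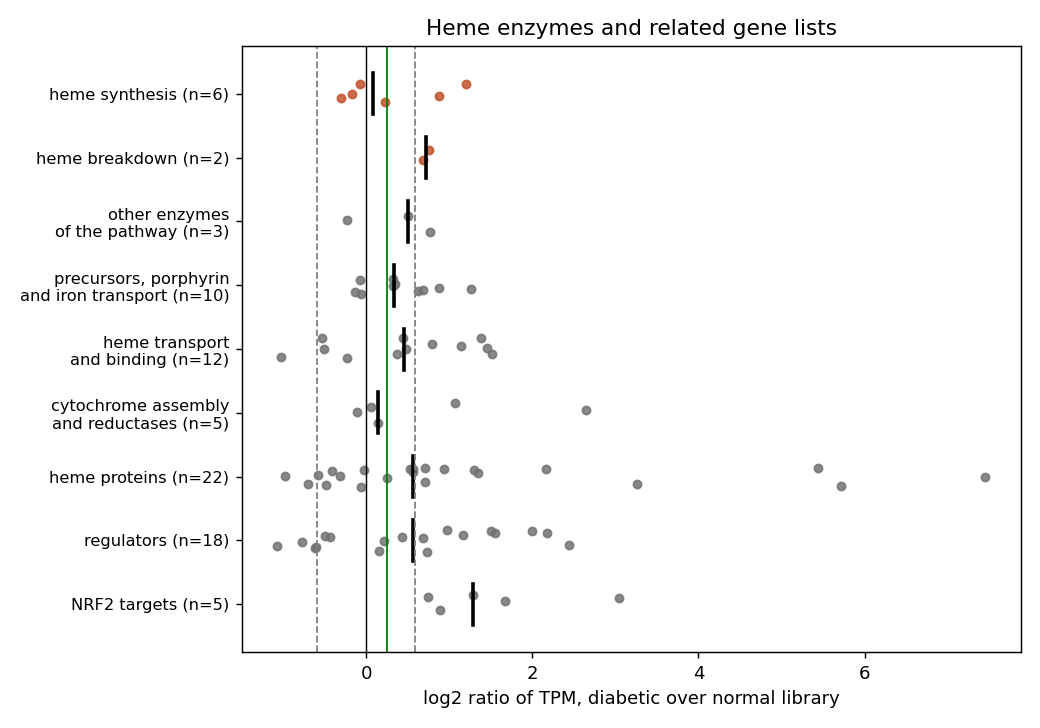
log2 ratio (diabetic over normal) of every listed gene of the heme enzyme groups (orange) and of 7 related lists (grey), with n the number of listed genes and bilirubin handling not plotted; black bars are medians, the green line the median of all listed genes and dashed lines 1.5-fold. The medians plotted run from 0.08 for heme synthesis to 1.29 for NRF2 targets, and the heme proteins reach 7.45.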

How the data were processed

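Liver mRNA of normal and diabetic mice was profiled as DpnII tags, with 1 library per group assigned from the genotype labels. The authors kept high-quality reads, removed adaptors, compared clean tags with RefSeq and deposited RPM values, tags per 1000000 clean tags, which they call TPM. The deposited values carry 0.01 in place of 0 and leave out genes with a mean under 1 TPM. The submitters' processing notes name mm9, and the aligner and the counting of shared tags are not given in the sources used here. Other columns of values per sample not used numbered 0.

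Members were found by symbol. The members, gene lists, motifs and rule for named genes were chosen with earlier results of these data known. The rule names every listed member, every listed other enzyme kept, and of each further list at most 4 genes past 1.5-fold with an exact test FDR under 0.001 in each direction and the gene nearest to equal. A larger count of such genes is given without names. Some genes of these lists are not reported here, and the counts leave them out. The listed macrophage and hepatocyte markers, Maff, Mafk, Bach1 and Keap1 were named after their values were seen. Of 7 endothelial markers, 7 were listed, 2 were at least 1.5-fold higher and 1 lower, beside 34.4% and 15.3% of all listed genes. Of 5 neutrophil markers 1 was listed.

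Whole reads were recovered from the steps of the values by least squares. Intervals at 95% are exact (Clopper-Pearson for folds, Poisson for levels, conditional odds ratio for pairs), and a whole-transcriptome exact binomial test with Benjamini-Hochberg adjustment over 8551 genes was used as an alternative call. Intervals cover counting error only. Amplified tags with no molecular identifier can share a source molecule, so the intervals may be too narrow even for that error. Alternatives were 4 scalings (to listed genes, TMM, median ratio, upper quartile), pseudocounts of 0.1 and 1 TPM, a mean of at least 5 TPM, a 2-fold threshold and the Audic-Claverie test. The computation was tested on simulated reads. Python 3.11.15, numpy 2.4.6, scipy 1.17.1 and pandas 2.3.3 were used.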

Additional observations from a re-analysis of the deposited data

How the results depend on the processing

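With 1 library per group, 0 results have a replicate check, and no replicate could be left out. As deposited, 4 of the 8 heme enzyme genes passed 1.5-fold on the higher side, 0 on the lower, and the median log2 ratio was 0.46. With library totals taken over listed genes, by TMM and by upper quartile, 2 were higher (Cpox and Ppox), with medians of 0.20, 0.20 and 0.19. By median ratio, 1 was higher (Cpox) and 1 lower (Uros), with a median of 0.15. The exact binomial and the Audic-Claverie test each left 2 (Cpox and Hmox1), and a 2-fold threshold left 1 (Cpox). Pseudocounts of 1 and 0.1 TPM gave 3 and 4, and a mean of at least 5 TPM gave 3. Of the values of single genes under scalings and pseudocounts, 32 of 48 lay inside the counting interval of the deposited value, and 0 of those past 1.5-fold changed sign. Urod, within 1.5-fold, changed sign under all 4 scalings (0.23 against -0.07 to -0.02).

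Over all listed genes, the deposited values put 2941 past 1.5-fold higher and 1310 past 1.5-fold lower. The lower genes numbered 2044 scaled to the listed genes, 2023 by TMM, 2076 by upper quartile and 2189 by median ratio, and by the last 1874 were higher. Scaling to the listed genes, TMM and upper quartile gave 2028, 2053 and 1997 higher genes, so the split became nearly even. The numbers of higher and lower genes were 1773 and 658 for genes whose mean reached 5 TPM, 1589 and 582 at 2-fold, 1955 and 700 with the exact binomial test, and 1928 and 704 with the Audic-Claverie test. The alternative with an assumed variation of 20% between samples was not run. Depth limits Uros, Ppox and Blvrb most, with 37 to 99 reads. No paired analysis was possible because each group has 1 library.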
